A study of Mus musculus with 12 samples.

Results

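The multiciliated cells of the airway carry many motile cilia, and a small set of genes switches on the programme that builds them. The set described here holds 8 such genes, Gmnc, Mcidas, Ccno, Myb, Trp73, Foxj1, Rfx2 and Rfx3, taken by symbol from a deposited table of read counts for 56748 genes. All 8 were found, and all 8 were among the 20229 genes with enough reads to be tested. The counts came from RNA sequencing of whole lung tissue of mice that develop mammary tumours, in 12 libraries of 3 genotypes with 4 libraries each, at an age of 4.5 months. The group called WT was MMTV-Cre; MMTV-PyMT, the group called C3 KO was MMTV-Cre;C3Tdt:MMTV-PyMT, and the group called S1pr1 KO was MMTV-Cre;S1pr1fl/fl; MMTV-PyMT. All 3 groups therefore carry both the Cre transgene and the tumour transgene, the controls included, and lungs without them were not analysed here. The MMTV promoter is active mainly in mammary epithelium, and most cells of the whole lung are of other types. Which cells of these lungs carried a deletion was not tested. Whether the 4 samples in each group are 4 different mice is not stated in the labels; a p-value given here refers only to the spread among samples, part of which may be technical.

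In a cell that is to become multiciliated, GMNC and then MCIDAS, relatives of the replication inhibitor geminin, act with E2F factors to start the programme and the mass production of centrioles, which become the bases of the cilia. CCNO and MYB act in that centriole step, p73 (the product of Trp73) acts above the ciliary genes, and FOXJ1 together with RFX factors turns on the genes for the dyneins, radial spokes and transport proteins of the motile axoneme. RFX proteins bind a sequence called the X-box, and Notch signalling holds neighbouring cells back from this fate. Outside the airway, MYB is best known from immature blood cells, and RFX3 also acts in cells with a primary cilium.

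Promoter sequences were examined for the elements that these factors bind, because RFX2 and RFX3 are both members of the set and factors that bind X-boxes. RefSeq promoters on GRCm38.p6, taken as the 250 bases before each start, were matched for 7 of the 8 regulators, with 9 starts in all; Foxj1 was not matched. The element GTTGCC, which forms an arm of the X-box, stood on the strand of the gene in the promoters of Ccno, Mcidas and Rfx2. That is 3 of the 9 promoters, against 10.4% of all 32851 promoters of the same length, searched on both strands in the same way. The 3 promoters held 72.4% to 76.0% G and C, and the 9 held 39.2% to 81.2%, where the median of all promoters was 52.4%, so the shares compare promoters of unlike base composition. The windows around it are printed with the element in capitals, 5′ to 3′ on the strand of the gene, for Ccno at chr13:112987559-112987612 (plus strand), Mcidas at chr13:112993649-112993702 (plus strand) and Rfx2 at chr17:56831095-56831148 (minus strand).
Ccno: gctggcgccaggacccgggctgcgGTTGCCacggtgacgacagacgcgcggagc
Mcidas: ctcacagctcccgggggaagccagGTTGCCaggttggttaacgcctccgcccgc
Rfx2: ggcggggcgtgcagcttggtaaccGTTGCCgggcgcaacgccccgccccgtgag
The element began 219 bases before the start of Ccno, 195 before that of Mcidas and 116 before that of Rfx2. A full X-box (GTTNCC, any 2 bases, then GGNAAC) was in 0 of the 9 promoters and in 0.374% of all promoters. Of the forkhead elements, TATTTAC was in 1 promoter, of Gmnc, against 2.73% of all, and TGTTTAC in 0, against 3.17%. The E2F elements TTTCCCGC and TTTGGCGC were in 0 of the 9, against 0.895% and 0.417% of all, and the MYB element CAACTG was in 1, of Gmnc, against 11.1%. These are matches of letters in a short window and do not show binding.

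Ccno and Mcidas lie next to each other in the genome, and a further gene of the programme follows them. On GRCm39, the build of the count table, Ccno spans chr13:113124336-113127311 and Mcidas spans chr13:113130379-113136928, both on the plus strand, with 3067 bases from the end of Ccno to the start of Mcidas. Cdc20b, a gene expressed with this programme, starts 34716 bases after the end of Mcidas, on the same strand, and holds the microRNA genes Mir449a, Mir449b and Mir449c. The miR-449 microRNAs act in multiciliated cells and belong to 1 family with miR-34. Their shared seed, bases 2 to 8, is in capitals in the RefSeq mature sequences, which are shown because these genes lie inside Cdc20b.
mmu-miR-449a-5p: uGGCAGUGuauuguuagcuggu
mmu-miR-449c-5p: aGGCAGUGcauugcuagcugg
mmu-miR-34b-5p: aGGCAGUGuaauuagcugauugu
The rows of the 3 Mir449 genes held 0 to 3 reads in any library, too few to give a level. The other 6 regulators lie elsewhere: Foxj1 on chromosome 11 (116221530 to 116226225), Rfx2 on 17 (57082897 to 57138013), Rfx3 on 19 (27739121 to 27988566), Gmnc on 16 (26732303 to 26810402), Myb on 10 (21000834 to 21036883) and Trp73 on 4 (154140706 to 154224665), all on the minus strand.

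Total counts ranged from 32274797 to 53063470 per library. Levels are given in CPM, counts scaled to the depth of each library. Lung markers were high in all libraries, from 12582 CPM upward for Scgb1a1 of club cells and from 9411 CPM upward for Sftpc of alveolar type 2 cells, and the 8 mammary epithelial markers summed to 19.5 to 41.1 CPM. Neither targeted gene passed the test in its own knockout group, by edgeR's quasi-likelihood test with Benjamini-Hochberg adjustment. C3 had a log2 fold change of -0.25 (SE 0.30, adjusted p = 0.813) in C3 KO and S1pr1 one of -0.85 (SE 0.29, adjusted p = 0.153) in S1pr1 KO, both against WT. The library labelled C3 KO 4 held 1416 CPM of C3, above the WT libraries at 787 to 1025 CPM, where the other libraries labelled C3 KO held 465 to 601 CPM. The library labelled S1pr1 KO 2 held 366 CPM of S1pr1, within the WT range of 295 to 491 CPM, where the other libraries labelled S1pr1 KO held 132 to 154 CPM. Results are given with all 12 libraries and, where that alters a count of calls, also without these 2.

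Foxj1 was by far the most abundant of the 8, and the initiators Gmnc and Mcidas the least. In FPKM, a unit scaled to gene length as well as to depth, so that genes of different length can be compared, the median level over the 12 libraries was 46.5 for Foxj1, 3.72 for Rfx2, 2.33 for Trp73, 1.63 for Rfx3, 1.52 for Myb, 1.12 for Ccno, 0.405 for Gmnc and 0.292 for Mcidas. Of the 7 neighbouring pairs in this order, 2 had ranges that did not overlap. The lowest Foxj1 value (26.1 FPKM) lay above the highest Rfx2 value (4.09 FPKM), and the lowest Ccno value (0.891 FPKM) above the highest Gmnc value (0.698 FPKM). The genes from Rfx2 down to Ccno overlapped each with the next, and Rfx3 exceeded Myb in 7 of the 12 libraries. Mcidas was so low that it rested on 14 to 51 reads per library.

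**Figure D1:**
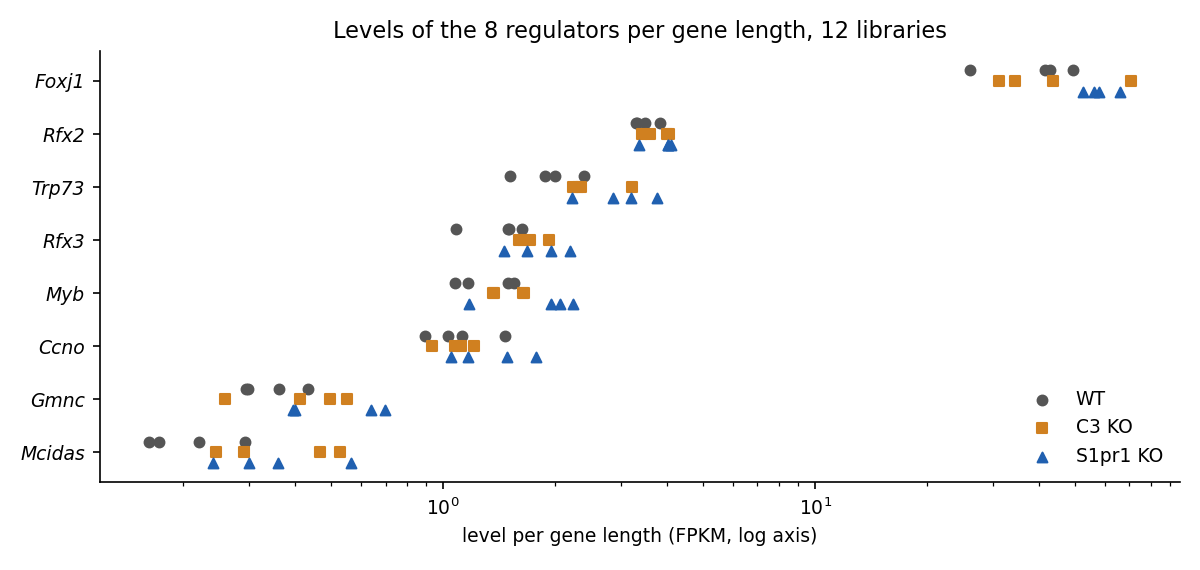
Level of each regulator in FPKM on a log axis, with 1 point per library, coloured and shaped by genotype. Foxj1 stands apart at 26.1 FPKM and above, and Mcidas and Gmnc lie at the bottom, all under 0.70 FPKM.

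In the comparison of S1pr1 KO with WT, the 8 regulators all had a positive log2 fold change, and none passed the test. The median of the 8 was 0.52, from 0.16 for Rfx2 to 0.78 for Mcidas, where the median of all genes tested was -0.0011 and 49.8% of them were positive. At an adjusted p under 0.05 the count was 0 of 8 by edgeR, against 1.35% of all genes (166 higher and 108 lower). With an unadjusted p under 0.05 and a positive fold change it was 6 of 8, against 9.94% of all genes, the exceptions being Rfx2 and Ccno. The 8 were chosen with earlier results of these data known, so this is not an independent test. DESeq2 called 1 of the 8, Trp73 (adjusted p = 0.0192), where it called 6.34% of all genes, and limma voom called 0, against 1.26% of all genes. Without those libraries, C3 KO 4 and S1pr1 KO 2, edgeR called 2 of the 8, Trp73 (log2 fold change 0.76, adjusted p = 0.0292) and Myb (0.66, adjusted p = 0.0362), against 2.31% of all genes in that fit, with a median of 0.62. In RNA of whole lung, a difference in the number of cells of a type and a difference in RNA per cell cannot be told apart.

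**Figure D2:**
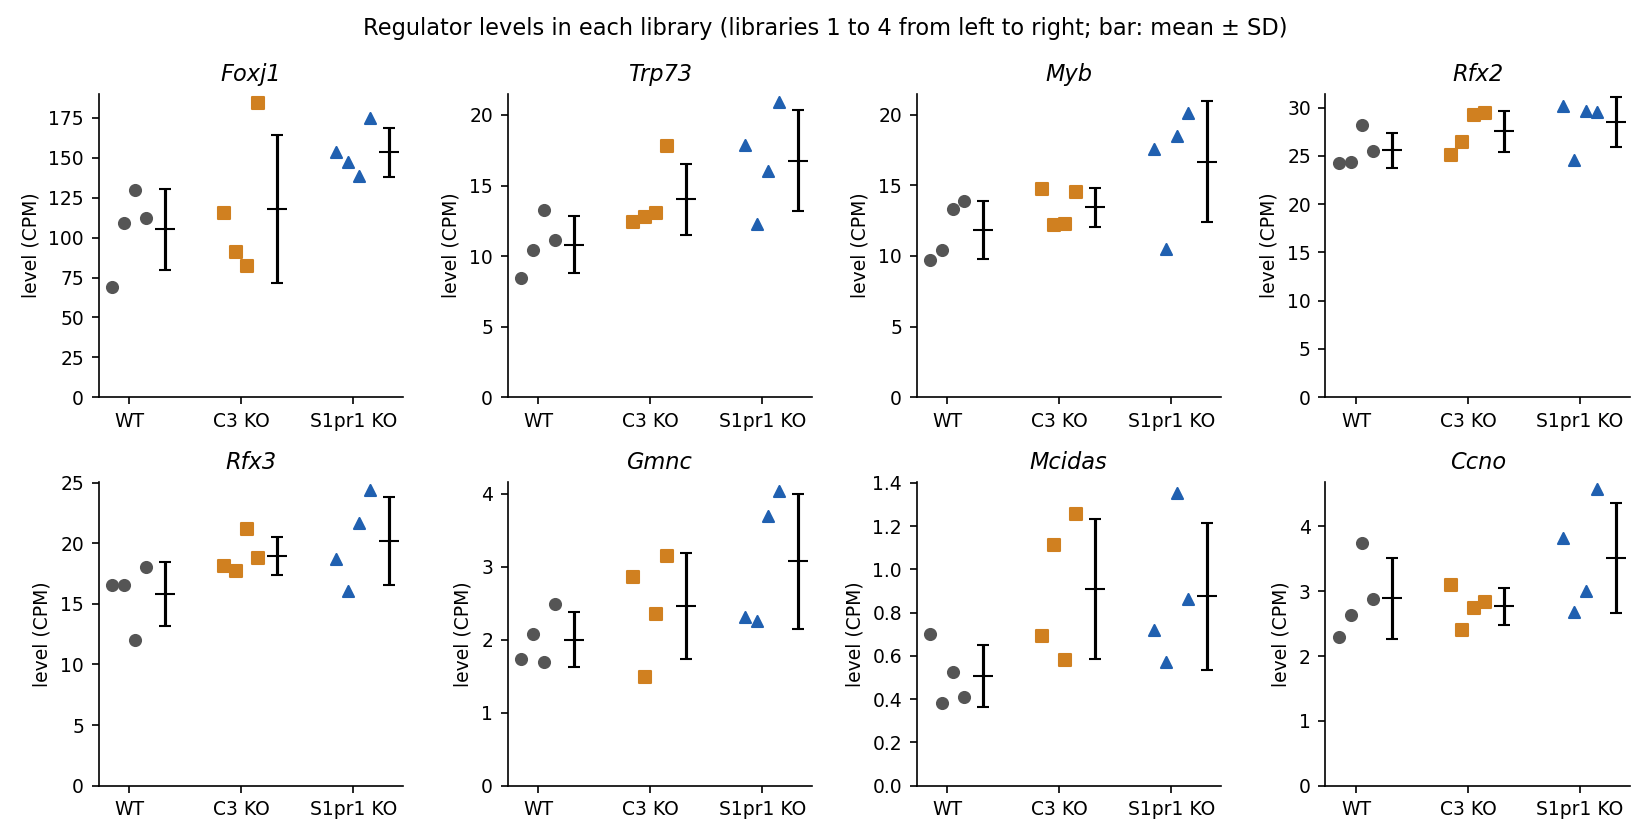
Level of each regulator in CPM in each library, with the mean and SD of the 4 libraries of a genotype beside the points; axes start at 0. For Foxj1 the S1pr1 KO libraries, from 139 CPM upward, all lie above the WT libraries, and for the other 7 genes the groups overlap.

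Gmnc, the earliest of the geminin relatives in the programme, measured 1.73, 2.08, 1.70 and 2.50 CPM in the 4 WT libraries. In S1pr1 KO it measured 2.31, 2.26, 3.69 and 4.04 CPM. All 4 S1pr1 KO values were above the WT mean but only the last 2 above the highest WT library, and the log2 fold change was 0.61 (SE 0.27, adjusted p = 0.246 by edgeR). In C3 KO the values of 2.86, 1.49, 2.36 and 3.15 CPM fell on either side of the WT values, C3 KO 2 being the lowest of all 12 libraries.

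Mcidas, which follows Gmnc and acts with E2F factors, measured 0.702, 0.384, 0.527 and 0.411 CPM in WT. It measured 0.694, 1.11, 0.583 and 1.25 CPM in C3 KO and 0.719, 0.571, 1.35 and 0.861 CPM in S1pr1 KO. Both knockout groups held libraries near the WT level and libraries well above it, and all 8 knockout libraries lay above the WT mean of 0.506 CPM. The log2 fold change against WT was 0.84 in C3 KO (SE 0.35, adjusted p = 0.416 by edgeR) and 0.78 in S1pr1 KO (SE 0.35, adjusted p = 0.263). These were the highest fold changes of the 8 regulators in each comparison, on the smallest counts of the set.

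Ccno, a cyclin-like protein needed for centriole production, was not called in any comparison. It measured 2.29, 2.63, 3.75 and 2.88 CPM in WT, 3.09, 2.40, 2.75 and 2.84 CPM in C3 KO, and 3.82, 2.68, 3.00 and 4.57 CPM in S1pr1 KO. The ranges overlapped throughout, with S1pr1 KO 1 and S1pr1 KO 4 at the top. Its log2 fold change was 0.29 in S1pr1 KO against WT (SE 0.20, adjusted p = 0.492 by edgeR) and -0.06 in C3 KO against WT (SE 0.20, adjusted p = 0.949). Between the knockouts, S1pr1 KO against C3 KO, it was 0.34 (SE 0.20, adjusted p = 0.523 by edgeR).

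Myb, a transcription factor active early in the centriole step, measured 9.71, 10.4, 13.4 and 13.9 CPM in WT and 17.6, 10.5, 18.5 and 20.2 CPM in S1pr1 KO. The library S1pr1 KO 2 lay within the WT range and the other S1pr1 KO libraries above it. For Myb this gave a log2 fold change of 0.49 (SE 0.19, adjusted p = 0.183 by edgeR), and 0.66 when C3 KO 4 and S1pr1 KO 2 were left out. In C3 KO the values were 14.7, 12.2, 12.2 and 14.6 CPM, all above the WT mean of 11.8 CPM. Because immature blood cells also express Myb, their markers were read beside it. The summed level of 11 T cell and thymocyte markers was 31.7 to 53.3 CPM in WT and 16.3 to 33.5 CPM in S1pr1 KO. All 8 that could be tested had negative fold changes. Of these 1, Cd4, was called (-1.10, adjusted p = 0.0276 by edgeR), against 1.35% of all genes. DESeq2 called 4 of the 8, against 6.34% of all genes, and voom 2, against 1.26%. At an unadjusted p under 0.05 there were 7 of 8, against 18% of all genes. Rag1, Rag2, Dntt and Ptcra, which mark immature T cells, stayed under 0.5 CPM in every library. The 8 markers of blood progenitors summed to 603 to 721 CPM in WT and 548 to 633 CPM in S1pr1 KO, with Elane under 0.5 CPM throughout. Most of that sum came from Kit, Gata2 and Cd34, each at 124 CPM or more in every library, and Mpo, Prtn3, Gata1 and Ms4a2 each stayed at 4.55 CPM or less. In which lung cells Kit, Gata2 and Cd34 were expressed was not tested, so the sum is not a measure of blood progenitors. The 8 B cell markers summed to 104 to 173 CPM in WT and 69.7 to 133 CPM in S1pr1 KO. Of the 7 tested, 0 were called by edgeR and by voom and 1, Vpreb3, by DESeq2, against 6.34% of all genes. At an unadjusted p under 0.05 there were 5 of 7, against 18% of all genes. Vpreb3 had a log2 fold change of 0.60 (adjusted p = 0.126 by edgeR) and Vpreb1, of B progenitors and at most 0.801 CPM, one of 1.28 (adjusted p = 0.399), while Cd79a, Cd79b, Ms4a1 and Ebf1 were negative, from -1.43 to -0.25. Igll1, another progenitor marker, stayed under 0.5 CPM. These genes were named after their values were seen. The part of these cells in the Myb level was not tested.

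Trp73, whose product p73 acts above Foxj1 in the programme, came nearest to a call. It measured 8.42, 10.4, 13.3 and 11.1 CPM in WT and 17.9, 12.3, 16.0 and 20.9 CPM in S1pr1 KO, so S1pr1 KO 2 lay within the WT range and the other S1pr1 KO libraries above it. Between S1pr1 KO and WT its log2 fold change was 0.63 (SE 0.18, adjusted p = 0.0929 by edgeR, unadjusted p = 0.00404). In C3 KO the values were 12.4, 12.8, 13.0 and 17.8 CPM, with a log2 fold change of 0.38 (SE 0.18, adjusted p = 0.473). Each of the 8 knockout libraries lay above the WT mean of 10.8 CPM, but in C3 KO only the library labelled C3 KO 4 lay above the highest WT value.

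Foxj1, the factor that directly switches on motile cilium genes, measured 69.1, 109, 130 and 113 CPM in WT and 154, 147, 139 and 175 CPM in S1pr1 KO. It was the only regulator of the 8 for which every S1pr1 KO library lay above every WT library, an order found for 6.16% of all genes tested. Its log2 fold change was 0.55 (SE 0.24, adjusted p = 0.247 by edgeR), with means of 154 ± 15.4 CPM in S1pr1 KO and 105 ± 25.7 CPM in WT (SD, n = 4 each). In C3 KO the values were 115, 90.8, 82.1 and 185 CPM. The library labelled C3 KO 4 held the highest level of all 12 libraries and 2 other C3 KO libraries lay under the WT mean. The log2 fold change of C3 KO against WT was 0.17 (SE 0.24, adjusted p = 0.849) and became -0.13 without C3 KO 4, so its direction rested on that library.

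Rfx2, which binds X-boxes with FOXJ1 at ciliary genes, was the steadiest of the 8, with its highest value 1.24 times its lowest. It measured 24.3, 24.4, 28.2 and 25.5 CPM in WT, 25.1, 26.4, 29.2 and 29.5 CPM in C3 KO, and 30.2, 24.6, 29.7 and 29.5 CPM in S1pr1 KO. S1pr1 KO 2 was at the WT level and the other S1pr1 KO libraries slightly above the highest WT value. The log2 fold change was 0.16 in S1pr1 KO (SE 0.08, adjusted p = 0.352 by edgeR) and 0.11 in C3 KO (SE 0.08, adjusted p = 0.687), both against WT.

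Rfx3, the other RFX factor of the set, measured 16.6, 16.6, 11.98 and 18.0 CPM in WT, 18.1, 17.7, 21.2 and 18.8 CPM in C3 KO, and 18.7, 16.0, 21.6 and 24.4 CPM in S1pr1 KO. WT 3 was the lowest library and S1pr1 KO 4 the highest, and the ranges overlapped. For Rfx3 the log2 fold change was 0.35 in S1pr1 KO (SE 0.14, adjusted p = 0.216 by edgeR) and 0.26 in C3 KO (SE 0.14, adjusted p = 0.534), both against WT.

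In the comparison of C3 KO with WT, 7 of the 8 regulators had a positive log2 fold change, with a median of 0.22, and none was called. The count was 0 of 8 by edgeR, DESeq2 and limma voom, where edgeR and voom each called 0.00989% of all genes, which is 2 genes, and DESeq2 called 0.878%. With an unadjusted p under 0.05 and a positive fold change it was 1 of 8, Mcidas, against 5.87% of all genes. No regulator had all C3 KO libraries above all WT libraries, against 3.00% of all genes. With C3 KO 4 and S1pr1 KO 2 left out, the median was 0.16, 6 of the 8 were positive and 0 were called by edgeR, against 0.152% of all genes.

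Between the knockouts, S1pr1 KO against C3 KO, 7 of the 8 fold changes were positive with a median of 0.28, Mcidas being the exception at -0.06. The highest was that of Foxj1, at 0.38 (SE 0.24, adjusted p = 0.559 by edgeR). None of the 8 was called by edgeR, DESeq2 or limma voom, where edgeR and voom called 0% of all genes and DESeq2 called 1.57%. With an unadjusted p under 0.05 and a positive fold change the count was 0 of 8, against 6.58% of all genes, and for 0 of 8 did every S1pr1 KO library lie above every C3 KO library, against 3.55%. Without the 2 libraries named before, the median was 0.49 and 0 were called by edgeR, against 0.0147% of all genes. This is the direct test of whether the knockouts differed, and the comparisons of each knockout with WT share the same 4 WT libraries.

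**Figure D3:**
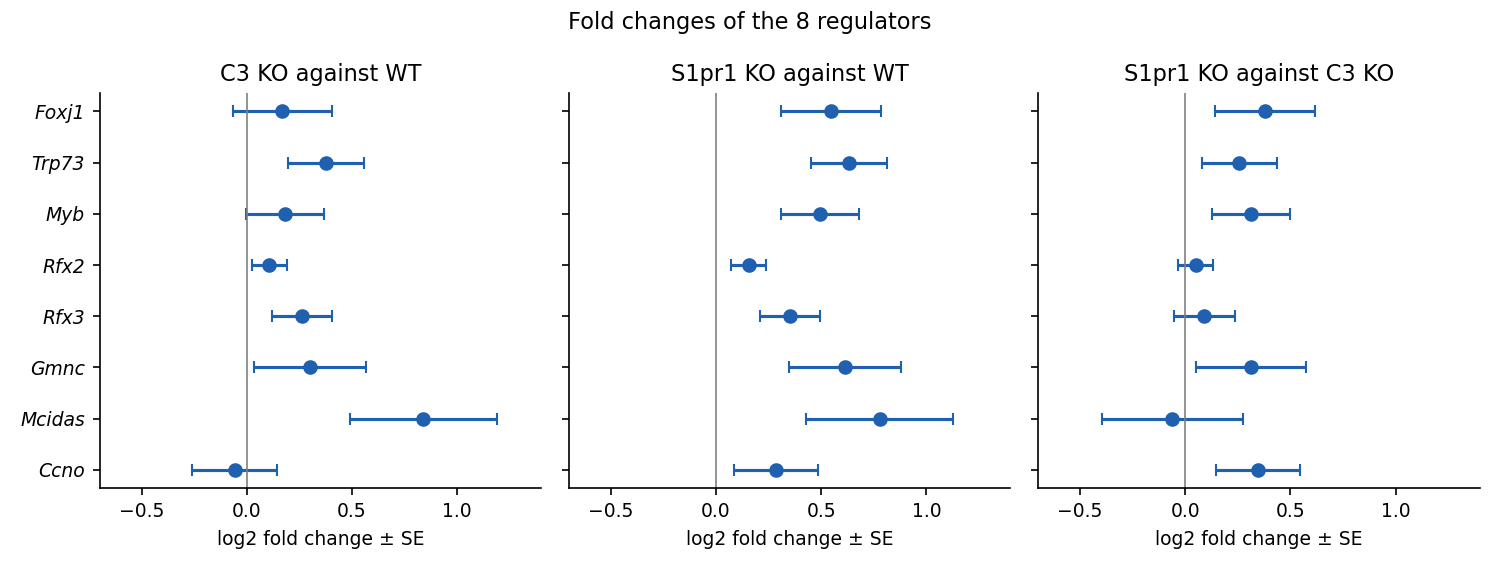
Log2 fold change of each regulator with its standard error in the 3 comparisons, on 1 shared axis. In S1pr1 KO against WT all 8 points lie to the right of 0, from 0.16 to 0.78, and none passed the adjusted threshold.

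The genes that the programme turns on were followed through lists of related genes. All lists were chosen with earlier results of these data known, so counts beside the share of all genes are not an independent test. Of 32 genes for the structure of motile cilia, 5 rose in S1pr1 KO against WT and none fell by edgeR, against 1.35% of all genes called in either direction. With an unadjusted p under 0.05 and a positive fold change there were 27 of 32, against 9.94% of all genes. DESeq2 called 17 of the 32 (6.34% of all genes), limma voom 5 (1.26%) and limma on log2(FPKM + 1) 2 (1.12%). Of the 32 genes, 31 had positive fold changes and the median was 0.53, close to the median of 0.52 for the 8 regulators. The 5 were Ccdc153 (log2 fold change 0.89, adjusted p = 0.0295), Cfap43 (0.85, adjusted p = 0.0488), Mlf1 (0.78, adjusted p = 0.0358), Spag16 (0.77, adjusted p = 0.0406) and Ccdc113 (0.64, adjusted p = 0.0477), all by edgeR. Spag16 belongs to the central pair of the axoneme. Ccdc153, a gene typical of ciliated cells, measured 43.2, 57.7, 71.7 and 56.5 CPM in WT and 117, 89.2, 99.7 and 119 CPM in S1pr1 KO. Its groups did not overlap, an order found for 6.16% of all genes tested. With both C3 KO 4 and S1pr1 KO 2 left out, the count by edgeR was 18 of 32, against 2.31% of all genes. The 5 calls became 14 without C3 KO 4, 3 without S1pr1 KO 2, 2 without C3 KO 1 or C3 KO 2, 1 without WT 3, and 0 without any of the remaining WT or S1pr1 KO libraries taken singly. In C3 KO against WT 0 of 32 were called by edgeR, DESeq2 and voom. In that comparison 6 had an unadjusted p under 0.05, against 11% of all genes. Of the 32, 29 were positive with a median of 0.17, which was 0.02 without C3 KO 4. Between the knockouts 0 of 32 were called by edgeR and by voom, and 1 by DESeq2, against 1.57% of all genes. There 13 had an unadjusted p under 0.05, against 12% of all genes.

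Among 14 genes of centriole amplification, the step that GMNC and MCIDAS start, 0 were called in S1pr1 KO against WT by edgeR and by voom and 3 by DESeq2, where DESeq2 called 6.34% of all genes. With an unadjusted p under 0.05 and a positive fold change there were 7 of 14, against 9.94% of all genes. With C3 KO 4 and S1pr1 KO 2 left out, edgeR called 1 of the 14, Ccdc78 (0.74, adjusted p = 0.0211), against 2.31% of all genes. The median was 0.23, with 13 of the 14 positive. Cdc20b, Deup1 and Ccdc78, which belong to multiciliated cells, had the 3 lowest p-values of the list. Cdc20b, the neighbour of Mcidas, measured 0.608, 0.549, 0.469 and 0.603 CPM in WT and 1.48, 1.07, 0.823 and 1.16 CPM in S1pr1 KO, with a log2 fold change of 1.02 (SE 0.28, adjusted p = 0.0831 by edgeR), and its C3 KO libraries held 0.281 to 0.673 CPM. Deup1, which organises the deuterosomes on which centrioles form, had a log2 fold change of 0.71 (adjusted p = 0.0961 by edgeR). For Ccdc78, another deuterosome protein, it was 0.62 (adjusted p = 0.0792). All 4 S1pr1 KO libraries lay above all WT libraries for Cdc20b and Deup1, an order found for 6.16% of all genes tested. For Ccdc78, 3 of 4 did. The genes shared with the ordinary centriole cycle or the primary cilium were not uniformly lower. Stil had a log2 fold change of 0.82 (adjusted p = 0.233 by edgeR) and Kif24 one of 0.52 (adjusted p = 0.285). Pcm1 was at 0.16, Cep164 at 0.21 and Plk4 at 0.22. Stil and Plk4 were named after their values were seen.

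The partners and relatives of the regulators had medians near 0. Of 7 geminin and E2F genes, among them E2F factors with which GMNC and MCIDAS act, 3 were positive in S1pr1 KO against WT. The median was -0.01, with E2f4 at -0.07, E2f5 at -0.09 and Gmnn at 0.10. Among the 6 tested RFX relatives and cofactors the median was -0.04, with Rfx1 at -0.09, Rfx5 at 0.04 and Rfx7 at 0.05, and Rfx6 had no read in any library. Among 4 relatives of p53 and Myb the median was -0.01, with Trp63, a basal cell factor, at 0.05 and Mybl1 at 0.19. Without C3 KO 4 and S1pr1 KO 2 the 3 medians were 0.10, 0.03 and 0.06, and their signs also turned when some other single libraries were left out. In each of these 3 lists, 0 genes were called by edgeR, DESeq2 and voom in this comparison, and 0 had an unadjusted p under 0.05.

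Of 19 genes of the Notch pathway and of airway fate, 9 were positive in S1pr1 KO against WT and the median was -0.01. By edgeR and by voom 0 were called, and 1 by DESeq2, against 6.34% of all genes. At an unadjusted p under 0.05 there were 2, against 18% of all genes. These 2 were Sox2 and Heyl. Sox2, a factor of the conducting airway epithelium, measured 9.36, 11.4, 16.5 and 14.5 CPM in WT and 19.4, 20.6, 19.0 and 22.5 CPM in S1pr1 KO (log2 fold change 0.66, SE 0.16, adjusted p = 0.0682 by edgeR). The groups did not overlap, an order found for 6.16% of all genes tested. Heyl, a target of Notch, had a log2 fold change of -0.23 (adjusted p = 0.119 by edgeR). All its S1pr1 KO libraries lay below all its WT libraries, an order found for 1048 of the 20229 genes tested. Notch2 and Dll1, a receptor and a ligand, had fold changes of -0.03 and -0.11 in this comparison, and 0.23 and -0.54 in C3 KO against WT. In the latter comparison 0 of the 19 were called by edgeR, DESeq2 or voom. There 3 had an unadjusted p under 0.05, against 11% of all genes.

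For 29 genes of intraflagellar transport and the BBSome, the carriers that build both motile and primary cilia, the median was 0.11 with 24 positive. None was called in S1pr1 KO against WT by edgeR or voom and 1 by DESeq2, Ift74, against 6.34% of all genes. With an unadjusted p under 0.05 and a positive fold change there were 12 of 29, against 9.94% of all genes. Ttc8 reached 0.50 (adjusted p = 0.135 by edgeR) and Dync2h1, the heavy chain of the retrograde motor, 0.46 (adjusted p = 0.217).

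**Figure D4:**
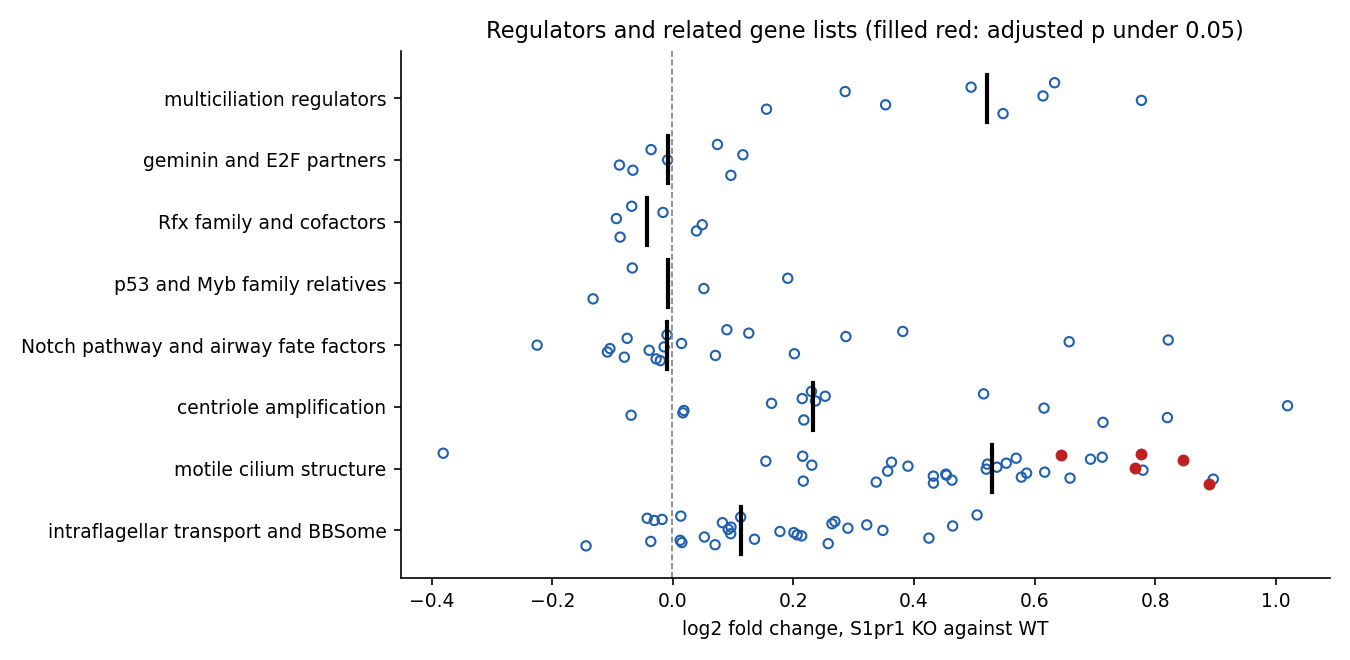
Log2 fold change of S1pr1 KO against WT for each gene of the regulators and of 7 related lists; black bars are medians and filled red points are the 5 genes with an adjusted p under 0.05. The medians of the regulators (0.52) and of the motile cilium structure genes (0.53) lie to the right of those of the other 6 lists, from -0.04 to 0.23.

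The level of each regulator was set beside a score for the structural genes, the mean log2 CPM of the 32 genes in each library. The score was 4.17, 4.49, 4.71 and 4.53 in WT and 4.71, 4.47, 4.44 and 5.03 in C3 KO. It was 5.02, 4.78, 4.94 and 5.19 in S1pr1 KO. All S1pr1 KO libraries were above all WT libraries, and C3 KO 4 was level with S1pr1 KO.

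Across the 12 libraries Foxj1 followed this score most closely of the 8, with Pearson's r = 0.95 and Spearman's rho = 0.98 (permutation p = 1e-05 for both, the smallest that the permutations can give, adjusted p = 8e-05 over 8 relations). It was 0.92 without S1pr1 KO 4 and WT 1, the libraries farthest from the median score, and 0.95 after the mean of each genotype was taken away. For Trp73 Pearson's r was 0.93 and Spearman's rho 0.76 (permutation p = 3e-05 and 0.0055, adjusted p = 0.00012 and 0.015), with r = 0.85 without those 2 libraries and 0.89 after removal of the genotype means. For both genes the relation therefore also held among libraries of the same genotype.

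Myb (r = 0.82, rho = 0.79), Ccno (r = 0.76, rho = 0.73), Gmnc (r = 0.73, rho = 0.68) and Rfx2 (r = 0.68, rho = 0.65) also followed the score, with adjusted permutation p of 0.0032, 0.0071, 0.013 and 0.024 for r and of 0.014, 0.019, 0.031 and 0.035 for rho. Without S1pr1 KO 4 and WT 1 their r was 0.67, 0.53, 0.57 and 0.54. After removal of the genotype means it was 0.71 for Myb and 0.74 for Ccno (adjusted permutation p = 0.019 and 0.017), and 0.57 for Gmnc and 0.54 for Rfx2 (adjusted permutation p = 0.088 and 0.089). The relation of the last 2 genes did not pass the test within genotypes. Mcidas (r = 0.45, rho = 0.44, adjusted permutation p = 0.17 and 0.16) and Rfx3 (r = 0.39, rho = 0.49, adjusted permutation p = 0.21 and 0.12) did not pass it at all, and without the genotype means their r was 0.18 and -0.03. Without S1pr1 KO 4 and WT 1 it was 0.55 for Mcidas and 0.11 for Rfx3. The low counts of Mcidas limit how well its level in a single library is known.

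**Figure D5:**
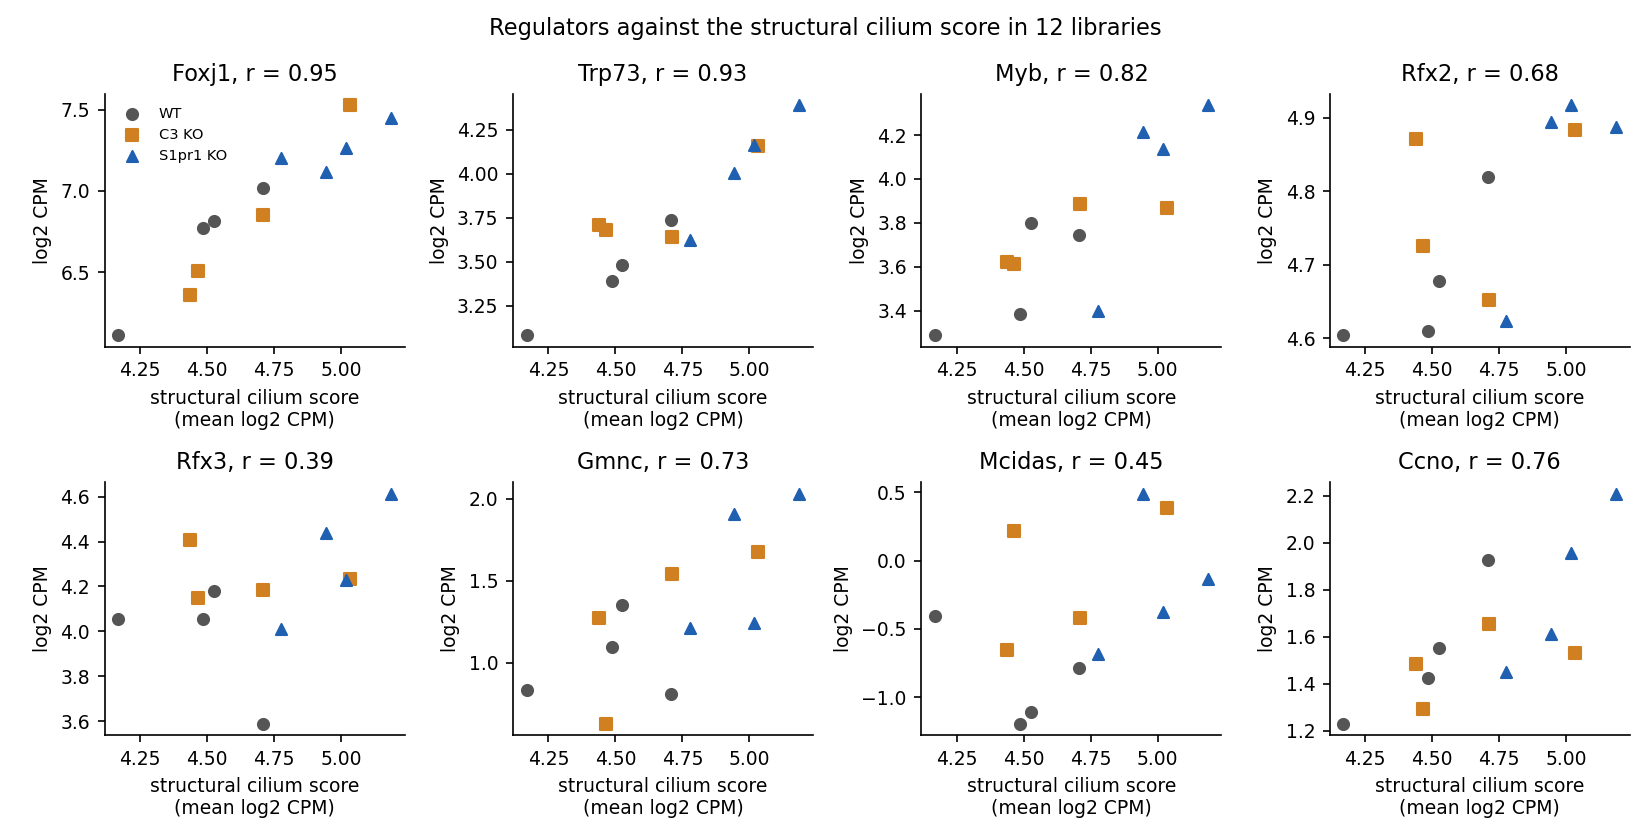
Log2 CPM of each regulator against the structural cilium score, the mean log2 CPM of 32 structural genes, with 1 point per library and Pearson's r over the 12 libraries in each title. Foxj1 (r = 0.95) and Trp73 (r = 0.93) lie close to a line that runs through all genotypes, and Rfx3 (r = 0.39) and Mcidas (r = 0.45) scatter.

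When each regulator was expressed as its log2 CPM minus this score, so that it was read per amount of structural ciliary RNA, 24 differences were compared, 8 regulators in 3 comparisons. By the two-sided exact permutation test 1 had an unadjusted p under 0.05. A single difference at the smallest p that 4 against 4 libraries allow gives 0.686 after Benjamini-Hochberg adjustment over 24, which was the lowest adjusted p found, so the adjusted test could not pass a lone difference of any size. That 1 was Rfx2 in S1pr1 KO against WT, with a difference of -0.36 on the log2 scale and groups that did not overlap (exact p = 0.0286, the smallest possible). Rfx2 itself had mean log2 CPM of 4.68 in WT and 4.83 in S1pr1 KO, where the score had means of 4.47 and 4.98. The sign of the difference therefore came from the score, whose genes were chosen with earlier results known, so this p is not an independent test. In the same comparison the difference was 0.07 for Foxj1, 0.11 for Trp73, -0.04 for Myb, 0.07 for Gmnc, 0.19 for Mcidas, -0.24 for Ccno and -0.16 for Rfx3.

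Among themselves the regulators varied in the same direction. All 28 pairs had a positive Pearson's r over the 12 libraries, from 0.03 for Mcidas with Ccno to 0.86 for Myb with Trp73, with a median of 0.56, and 8 pairs passed an adjusted permutation p of 0.05 over the 28 by both Pearson's and Spearman's measure. Trp73 took part in 4 of these 8 pairs, with Foxj1 (r = 0.81), Rfx2 (0.85), Ccno (0.74) and Myb (0.86). Myb took part in 4 as well, the others being those with Rfx2 (0.77), Gmnc (0.74) and Ccno (0.79). The eighth was Rfx3 with Gmnc (0.73). After removal of the genotype means 5 of the 28 pairs passed, those of Trp73 with Foxj1, Rfx2, Ccno and Myb and that of Ccno with Myb. Foxj1 with Rfx3 (-0.18) and Mcidas with Ccno (-0.12) were then negative, and the other pairs positive. Within the 4 WT libraries r ranged from -0.85 for Rfx2 with Rfx3 to 0.97 for Ccno with Trp73. Without C3 KO 4 and S1pr1 KO 3, the libraries farthest from the median of Mcidas, r of Mcidas with Gmnc was -0.016. Mcidas was in none of the pairs that passed, although it adjoins Ccno in the genome.

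Genes whose pattern over the 12 libraries was most like that of each regulator were named from 13917 protein coding genes of at least 1 CPM, by Pearson's r of log2 CPM, as a description. For Foxj1 they were Ulk4, Elof1, Dync2i1, Nme5 and Dnai2 (r from 0.95 to 0.96). For Trp73 they were Ldlrad1, Ccdc146, Ttc16, Dnah9 and Cep126 (0.96 to 0.98). Dnai2 and Dnah9, dynein chains of the motile axoneme, were on the structural list.

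The nearest genes to Myb were Nek11, Slc16a12, Rab36, Mdm1 and Cep164 (0.90 to 0.94), and those to Rfx2 were Mfsd6l, Cep164, Myo15b, Mks1 and Lrrc43 (0.88 for each). Cep164, which anchors centrioles at the membrane, was on the list of centriole genes and is shared by both. For Rfx3 the nearest were C2cd5, Ccdc15, Esco2, Alms1 and Kif23 (0.88 to 0.93), for Gmnc Slc25a32, Zfp950, Thoc7, Slc10a5 and Wdr93 (0.88 to 0.90), and for Ccno Cbr3, Cckar, Odad4, Trappc6a and Ect2l (0.88 to 0.92). None of the last 3 sets held a gene of the lists. The lists are not complete, and whether genes in these sets act in cilia was not tested. Mcidas, under 1 CPM on average, was not given such a set.

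Esco2 and Kif23, near Rfx3 in pattern, are genes of dividing cells, and proliferation markers were read beside the regulators. The 8 markers summed to 69.6 to 98.6 CPM in WT, 78.9 to 111 CPM in C3 KO and 81.2 to 161 CPM in S1pr1 KO. All 8 were positive in S1pr1 KO against WT with a median of 0.45, and 0 were called by edgeR, DESeq2 or voom. At an unadjusted p under 0.05 there were 2 of 8, against 18% of all genes. Markers of other airway cells overlapped between the groups. The 7 club cell markers summed to 25165 to 38765 CPM in WT and 21460 to 33709 CPM in S1pr1 KO, and the 6 basal cell markers to 3.48 to 74.3 and 4.13 to 39.7 CPM. In either list 0 were called by edgeR, DESeq2 or voom. At an unadjusted p under 0.05 there were 0 of 7 and 1 of 6, against 18% of all genes.

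Markers of heart muscle moved with the S1pr1 KO group. The 7 genes summed to 155 to 596 CPM in WT, 381 to 741 CPM in C3 KO and 728 to 2891 CPM in S1pr1 KO. All were positive in S1pr1 KO against WT and 1, Ryr2, was called by edgeR (1.86, adjusted p = 0.0436), against 1.35% of all genes. By DESeq2 the count was 4 of 7, against 6.34% of all genes, and by voom it was 0, against 1.26%. It was also 0 by edgeR with C3 KO 4 and S1pr1 KO 2 left out, against 2.31%. With all 12 libraries, 7 of 7 had an unadjusted p under 0.05 in S1pr1 KO against WT, where 18% of all genes did. The median log2 fold change of the 7 was 1.69. In S1pr1 KO against C3 KO 7 of 7 also had an unadjusted p under 0.05, where 12% of all genes did. Erythroid markers reached 23259 CPM in 1 C3 KO library, against 925 to 2522 CPM in WT. Their median log2 fold change in C3 KO against WT was 2.41 with 0 of 6 called by edgeR, DESeq2 or voom. All 6 had an unadjusted p under 0.05, against 11% of all genes. The part of these cells, or of the piece of lung sampled, in the levels of the 8 regulators was not tested.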

How the data were processed

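Per the submitters' processing notes, CASAVA and STAR were used, and GRCm39 and mm39 are the builds named. How reads were counted per gene, with or without strand and on which annotation, is not given in the sources used here. Overlapping or antisense genes may therefore share reads. The authors deposited whole-number read counts per gene, which were the input of every count test, and FPKM values per gene, which were used for levels between genes and in 2 alternatives. Groups were taken from the genotype label of each sample, and data columns were matched to samples by title. All 12 libraries were fitted in edgeR 4.0.16 (R 4.3.3) with filterByExpr, TMM scaling, 1 mean per genotype, 9 residual degrees of freedom and the quasi-likelihood test, with Benjamini-Hochberg adjustment over 20229 genes and a threshold of 0.05; the SE was derived from the fold change and its F statistic. Log2 CPM used a prior count of 2. The script was tested on simulated data. Single values were compared by exact permutation tests and correlations by permutation. Alternatives were RLE scaling, DESeq2 1.42.0, limma 3.58.1 (voom, and log2 FPKM with a pseudocount of 1 or 0.1), other filters, only 2 groups, a prior count of 0.5, each library left out, and 2 libraries left out.

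The regulators and all gene lists were chosen with earlier results of these data known. Genes were named by rule: all regulators; from each list the genes called, and the 4 of lowest p in each comparison with WT, of which some are named here; the 5 genes most like each regulator; and C3 and S1pr1. Promoter and microRNA sequences are from RefSeq on GRCm38.p6 and were not placed on GRCm39.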

Additional observations from a re-analysis of the deposited data

Results flagged for a closer look

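The levels of the 8 regulators were examined for a library far from the other 3 of its group, in 24 groups of 4 libraries, and 2 stood out by Dixon's ratio above its 95% critical value of 0.829. Rfx2 in S1pr1 KO 2, at 24.6 CPM, lay below the other S1pr1 KO libraries at 29.5 to 30.2 CPM (ratio 0.888). Trp73 in C3 KO 4, at 17.8 CPM, lay above the other C3 KO libraries at 12.4 to 13.0 CPM (ratio 0.891). Chance marks about 5% of such groups. These 2 libraries are also the ones in which the targeted gene was not below the WT range.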

How the results depend on the processing

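No paired analysis was possible because the replicate numbers follow the order of deposition and pair no samples across groups. No regulator was called in any comparison when any single library was left out, and all 8 stayed positive in S1pr1 KO against WT under every alternative run; Mcidas could not be fitted with the filter of 1 CPM in 4 libraries. The count of all genes called moved most. In C3 KO against WT it was 2, and 177 by DESeq2, 1 with only the 2 groups, 5 and 6 with log2 FPKM and a pseudocount of 1 and 0.1, 31 without C3 KO 4 and S1pr1 KO 2, and 1 to 32 (32 without C3 KO 4) with a library left out. In S1pr1 KO against WT it was 274, and 1279 by DESeq2, 473 without both libraries, and 2 (without S1pr1 KO 4) to 571 (without C3 KO 4) with a library left out. Between the knockouts it was 0, and 317 by DESeq2, 15 with no filter, 14 and 7 with log2 FPKM, 3 without both libraries, and 0 to 13 (13 without C3 KO 1) with a library left out. The cause was not tested.

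In S1pr1 KO against WT the list medians ranged, with a library left out, from -0.05 to 0.10 for the geminin and E2F genes, -0.07 to 0.03 for the RFX relatives, -0.14 to 0.12 for the p53 and Myb relatives and -0.01 to 0.04 for the Notch and fate genes, so their signs turned. Directions of small values turned, with the range over libraries left out singly. For the fold change in C3 KO against WT, Foxj1 ranged from -0.13 (also -0.13 without both libraries) to 0.32 and Ccno from -0.16 to 0.10. Between the knockouts Rfx3 ranged from -0.013 to 0.18 and Mcidas from -0.35 to 0.13, and Mcidas was 0.29 without both libraries. Relative to the structural score, the ranges in C3 KO against WT were -0.173 to 0.0175 (Foxj1), -0.0819 to 0.220 (Gmnc), -0.0580 to 0.0863 (Myb), -0.188 to 0.00631 (Rfx2) and -0.12 to 0.21 (Rfx3). In S1pr1 KO against WT they were -0.0182 to 0.105 (Foxj1), -0.0847 to 0.196 (Gmnc), -0.0425 to 0.449 (Mcidas) and -0.119 to 0.0979 (Myb). Between the knockouts they were -0.115 to 0.0680 (Ccno), -0.15 to 0.13 (Gmnc, 0.0016 with a prior count of 0.5), -0.128 to 0.0948 (Myb) and -0.14 to 1.5e-05 (Trp73).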
